A study of Mus musculus with 9 samples.

Results

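The comparison set long-term haematopoietic stem cells of mice with a mutant Jak2 allele and deleted Ezh2 against those of wild-type mice, gene by gene over the autosomes. Of 41345 probe sets on the array, 23521 carried exactly 1 gene symbol and gave 22180 genes, of which 21204 lie on an autosome. Each gene was read from its brightest probe set. All mice were C57BL/6 and were dosed 5 times with 300 µg pI-pC when 4 weeks old, and their marrow was harvested 12 weeks after that. Cells were sorted as Lin-Sca-1+c-kit+CD34-CD135-. The 3 WT control arrays were compared with 3 arrays of MxCre Jak2VF/+ EZH2-/- mice, called Jak2VF_Ezh2KO here, and 3 arrays of MxCre Jak2VF/+ mice, called Jak2VF, stood in the same fit and are quoted only for their level. Both mutant groups share the WT arrays as their control. MxCre is driven by an interferon-inducible promoter that works in many blood and other cells, so both genes were altered outside the stem cells too. The labels state neither whether WT mice carried MxCre nor the sex of any animal.

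Jak2 is the kinase that passes signals from cytokine receptors to STAT transcription factors, and its activated form drives myeloproliferative neoplasms with excess red cells or platelets. Ezh2 is the main methyltransferase of Polycomb repressive complex 2, which marks silent developmental genes with methylation of histone H3 at lysine K27. Ezh1 is its alternative subunit. Loss of Ezh2 together with activated Jak2 is a known combination in human myelofibrosis.

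Medians of the 6 arrays lay between 5.58 and 5.67 on the log2 signal scale, and their pairwise correlations over all probe sets lay between 0.898 and 0.961. The arrays did not group by genotype throughout, as the highest value was that of WT replicate 2 with Jak2VF_Ezh2KO replicate 3. WT replicate 2 correlated at 0.9502, 0.9229 and 0.9611 with Jak2VF_Ezh2KO replicates 1 to 3, and at 0.9405 and 0.9449 with WT replicates 1 and 3. Of 17 measured Y-linked genes, 3 were averaged, those found among Ddx3y, Eif2s3y, Kdm5d and Uty. Their mean was 6.66 and 6.81 in Jak2VF_Ezh2KO replicates 1 and 2, but 3.73 in replicate 3 and 3.64 to 3.73 in WT. Xist, transcribed from the inactive X chromosome, read 4.86 and 4.56 in the first 2 of these and 10.84 in replicate 3, against 10.98 to 11.31 in WT. Sex signal therefore moved with genotype in 2 of 3 mutant arrays, and values with Y-linked signal as a covariate or without both arrays are given below. Without both, the mutant group is replicate 3 alone, its spread is assumed to be that of the other groups, and such counts are descriptions of that array. The stem cell label was checked against its markers. Kit was 9.52, 10.00 and 9.78 in WT and 9.69, 9.43 and 10.18 in Jak2VF_Ezh2KO, with overlapping groups, and Procr, Hlf, Slamf1, Fgd5, Meis1 and Mecom had signals of 5.76 to 9.74 on all 6 arrays. Ly6a was not among the genes named here. Cd34, whose protein was sorted against, gave an RNA signal of 9.91 to 10.57. Genes of progenitors and dividing cells also gave signal on all 6 arrays, with Cd48 at 7.30 to 8.87, the proliferation gene Mki67 at 8.74 to 9.35, the granule enzyme gene Mpo at 8.59 to 10.08 and the red cell enzyme gene Car1 at 10.52 to 11.26. The RNA therefore does not show a population free of progenitors.

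In all, 5 autosomal genes passed at a limma adjusted p under 0.05, or 0.0236% of those tested. Of these, 4 rose in Jak2VF_Ezh2KO (0.0189% of all autosomal genes) and 1 fell (0.00472%). They were Mab21l2, Fam169a, Cma1 and the vomeronasal receptor gene Vmn1r188, which rose, and the olfactory receptor gene Olfr1046, which fell. All 5 calls rest on the spread estimated with the Jak2VF arrays and on moderation. With only the 6 compared arrays, limma passed 0 genes (all 5 at adjusted p = 0.175), and ordinary least squares passed 0, with 1004 and 761 genes higher and 817 and 688 lower at an unadjusted p under 0.05. Except for Olfr1046, the 5 genes were in the dimmer part of the signal range. At an unadjusted p under 0.05 there were 1805 genes, or 8.51%, with 990 higher (4.67%) and 815 lower (3.84%). For 2711 genes, or 12.8%, the 3 arrays of one group lay beyond all 3 of the other, with 1363 higher (6.43%) and 1348 lower (6.36%). The median difference over all autosomal genes was -0.02, with 9983 genes above 0, or 47.1%.

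**Figure D1:**
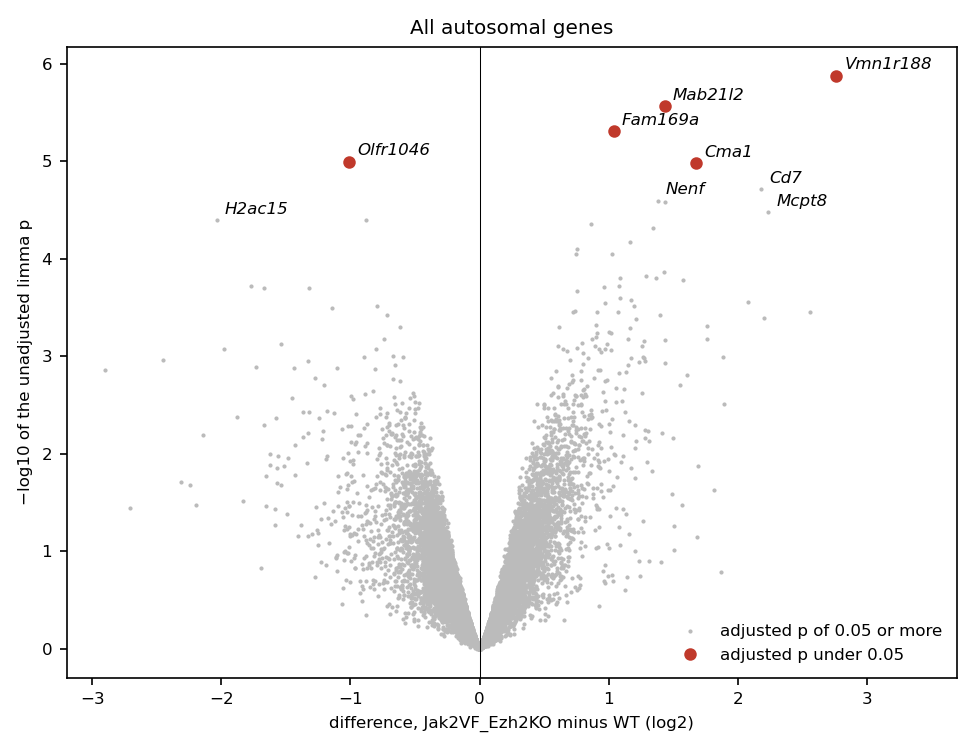
Each point is 1 of 21204 autosomal genes, by its log2 difference (Jak2VF_Ezh2KO minus WT, n = 3 each) on the horizontal axis and minus log10 of its unadjusted limma p on the vertical axis. The 5 genes at an adjusted p under 0.05 are in red, 4 of them to the right, and Cd7, Mcpt8, Nenf and H2ac15 are labelled among those that did not pass.

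Mab21l2, a developmental gene of the MAB21 family best known from the eye, read 4.69, 5.11 and 4.77 in WT and 6.23, 6.16 and 6.48 in Jak2VF_Ezh2KO. The groups were far apart, and the rise was 1.43 ± 0.15 (SE), or 2.70-fold (limma adjusted p = 0.0304). Jak2VF cells stood at the WT level, with a mean of 4.81. Fam169a went from 4.80, 4.97 and 4.85 to 5.83, 5.99 and 5.93, a rise of 1.04 ± 0.12 (SE), or 2.06-fold (adjusted p = 0.0363). Its Jak2VF mean was 5.06.

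Cma1, which encodes the mast cell chymase, read 4.92, 4.65 and 5.15 in WT and 6.91, 6.49 and 6.35 in Jak2VF_Ezh2KO. This was a rise of 1.67 ± 0.20 (SE), or 3.19-fold (adjusted p = 0.0459), and all 3 Jak2VF_Ezh2KO arrays were above all WT arrays, while the Jak2VF mean was 4.96. Vmn1r188 was dim in WT at 2.76, 3.63 and 3.54 and stood at 6.23, 6.34 and 5.65 in Jak2VF_Ezh2KO, a rise of 2.76 ± 0.27 (SE), or 6.79-fold (adjusted p = 0.0296). Olfr1046 read 6.68, 6.68 and 6.85 against 5.62, 5.87 and 5.68, and fell by 1.01 on the log2 scale (SE 0.12, adjusted p = 0.0459), with Jak2VF also low at a mean of 5.94. Vmn1r188 and Olfr1046 were singled out after their values were seen, because so few genes passed. Both belong to large families of similar sensory receptor genes that blood stem cells are not known to use, so probes may be shared with other family members.

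With Y-linked signal as a covariate, the 5 genes did not pass (adjusted p = 0.0851 to 0.409), and 2 other genes did. With both Y-positive arrays left out, Mab21l2 differed by 1.62, Fam169a by 1.06, Cma1 by 1.44, Vmn1r188 by 2.34 and Olfr1046 by -1.05, none passing at adjusted p = 0.211 to 0.538. Each of these values rests on 1 mutant array. The count of genes passed did not hold when single arrays were left out. It was 0 without WT replicate 1 or Jak2VF_Ezh2KO replicates 1 or 2, 1 and 2 without WT replicates 3 and 2, and 5 without Jak2VF_Ezh2KO replicate 3, of which 3 were among the genes above. Without Jak2VF replicates 2 or 3, which only inform the spread, it was 0, and without replicate 1 it was 6.

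**Figure D2:**
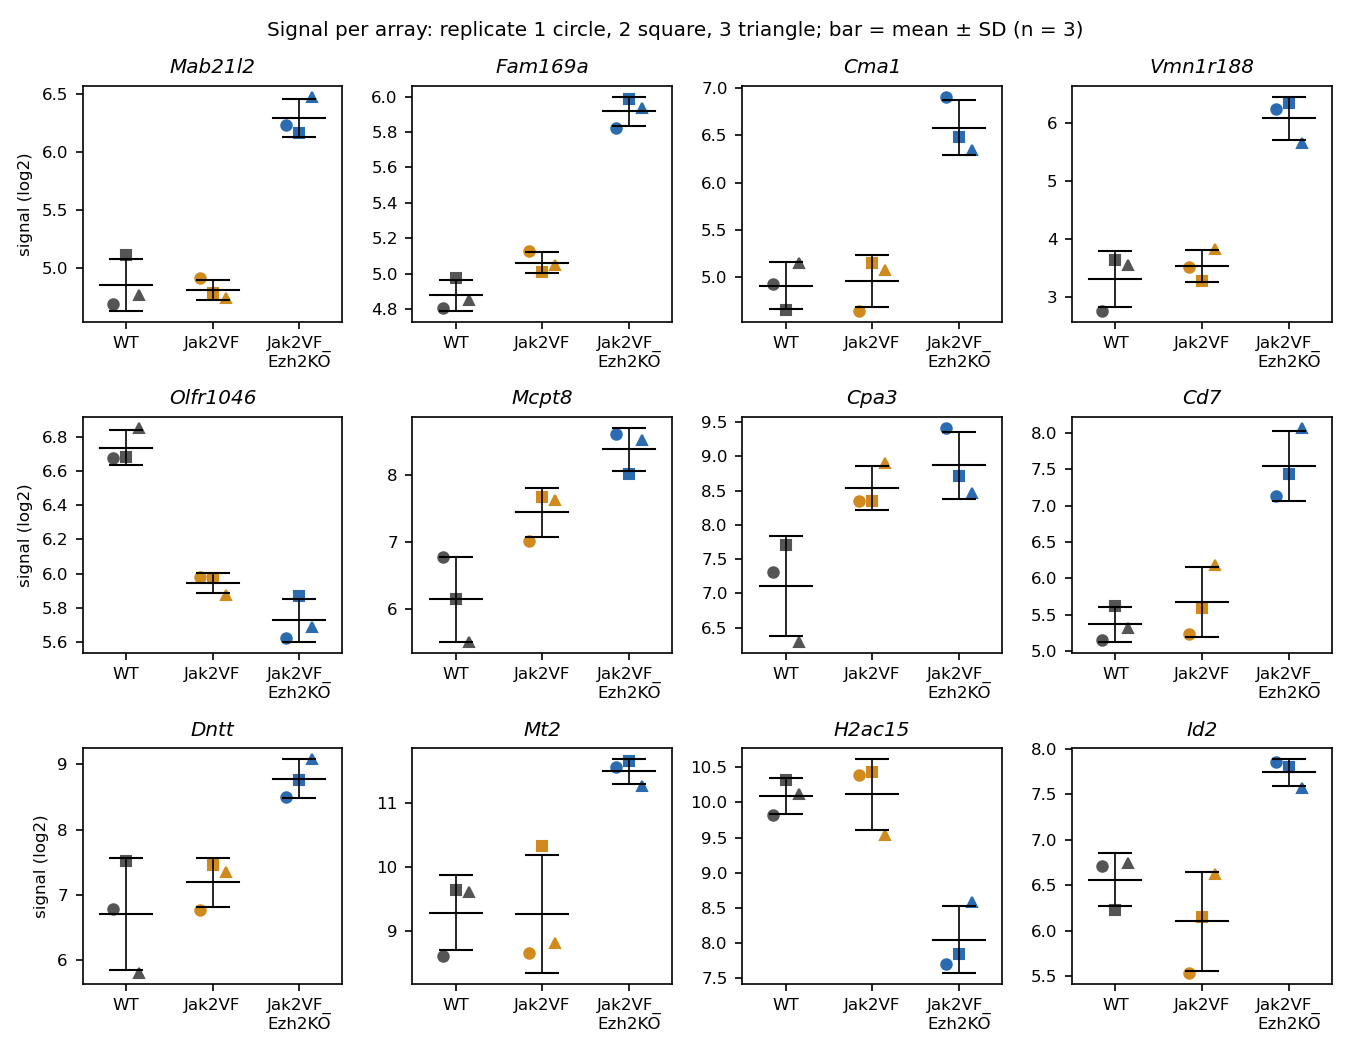
Log2 signal of 12 genes on each of the 9 arrays (points; replicate 1 circle, 2 square, 3 triangle) with the group mean ± SD (n = 3). Mab21l2, Fam169a, Cma1, Vmn1r188, Mcpt8, Cd7, Dntt, Mt2 and Id2 in Jak2VF_Ezh2KO lie above all 6 other arrays, and Olfr1046 and H2ac15 lie below them. By group mean, Cpa3, Mcpt8 and Olfr1046 in Jak2VF lie nearer to Jak2VF_Ezh2KO than to WT.

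The next genes did not pass, at adjusted p = 0.0716 to 0.159 for those higher. Cd7, a surface protein of T, NK and early lymphoid cells, read 5.15, 5.63 and 5.32 in WT and 7.13, 7.43 and 8.07 in Jak2VF_Ezh2KO, a difference of 2.18 (adjusted p = 0.0716) against a Jak2VF mean of 5.68. Mcpt8, a basophil protease gene, was 6.78, 6.16 and 5.51 against 8.61, 8.02 and 8.54, or 2.24 higher (adjusted p = 0.081), and its Jak2VF mean of 7.45 lay between the other groups. Nenf, which encodes the secreted factor neudesin, differed by 1.38 (adjusted p = 0.0735), from 8.59, 8.95 and 8.54 to 9.90, 10.31 and 10.00. Its other probe set differed by 0.76. Phf11d, Cenpv, Tjp1, Trim12a and the interleukin 18 receptor gene Il18r1 were 1.17 to 1.44 higher (adjusted p = 0.0735 to 0.159), each with no overlap between groups. Mpped2, Map2k2, Chchd7 and the cytotoxic cell protease gene Ctsw differed by 0.75 to 1.03 (adjusted p = 0.081 to 0.111).

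On the lower side the largest named difference was that of H2ac15, a replication-dependent histone H2A gene. It read 9.82, 10.32 and 10.13 in WT and 7.71, 7.85 and 8.59 in Jak2VF_Ezh2KO, a difference of -2.04 (adjusted p = 0.081), with Jak2VF at 10.12. The H2A genes are nearly identical in sequence, so its identity is less certain than that of a single-copy gene. Cyp2d40, a cytochrome P450 gene, differed by -0.88 (adjusted p = 0.081), from 6.55 ± 0.04 (SD, n = 3) to single arrays of 5.73, 5.47 and 5.81. The oocyte gene Oog1 and the stefin gene Stfa1 differed by -1.73 and -1.33 (adjusted p = 0.297 and 0.276). By its other probe set, Oog1 differed by -0.93.

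The targeted genes came next. Ezh2 read 8.48, 8.81 and 8.69 in WT and 8.46, 8.08 and 8.43 in Jak2VF_Ezh2KO. The groups did not overlap, but the difference of -0.34 ± 0.16 (SE) did not pass (adjusted p = 0.596). The sources used here do not say whether this probe set covers the deleted exons, so its signal does not check the deletion. Jak2, at 7.91, 8.11 and 8.09 against 7.93, 7.90 and 7.66, overlapped between groups with a difference of -0.20 (adjusted p = 0.719), and Ezh1 differed by 0.17 (adjusted p = 0.783). The core partners of Ezh2 in its complex differed little, Eed by 0.02 and Suz12 by -0.06. Of 40 measured Polycomb genes, 27 were higher and 13 lower with a median of 0.03, and 5 (12.5%) had an unadjusted p under 0.05, near the 8.51% of all autosomal genes. These were the Polycomb repressive complex 1 subunits Bmi1, 0.71 higher, Cbx7, 0.53 higher, and Pcgf5, 0.42 higher, the deubiquitinase partner Asxl1, 0.46 higher, and the chromodomain subunit Cbx8, which differed by -0.37 (adjusted p = 0.411 to 0.58). Without both Y-positive arrays, 0 Polycomb genes were higher and 1 lower at that level by limma. Bmi1 was 5.89, 6.02 and 5.87 in WT and 6.95, 6.81 and 6.16 in Jak2VF_Ezh2KO, highest in both Y-positive arrays.

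Among genes that Polycomb commonly keeps silent, few stood apart between the groups. Among 78 developmental transcription factor and patterning genes, 34 were higher and 44 lower (median -0.04), 4 (5.13%) had an unadjusted p under 0.05, below the 8.51% of all autosomal genes, and Mab21l2 was the only one that passed. Besides Mab21l2, the 4 included Lhx2 and Nkx6-1 (0.32 and 0.33 higher) and Zic5 (-0.29, or -0.63 by its other probe set). Of 36 Hox genes, 20 were higher and 16 lower (median 0.02), and 1, Hoxa2, had an unadjusted p under 0.05 (0.51 higher). The 32 imprinted growth-control genes had a median of -0.05 and 0 at that level, the imprinted growth factor gene Igf2 differing by -0.42. Plagl1, of the same list, differed by -0.31 by its brighter probe set and by -1.36 by the other. Cdkn2a, a cell cycle inhibitor locus known as a Polycomb target, differed by -0.06, with 5.90 to 6.03 on the 6 arrays. Among 15 fetal stem cell genes (median -0.14), Plag1, a zinc finger factor, read 7.48, 7.33 and 7.69 in WT and 7.67, 8.21 and 8.51 in Jak2VF_Ezh2KO, 0.63 higher (adjusted p = 0.466) with overlap in replicate 1, while Jak2VF had a mean of 6.17.

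Genes next to the targeted loci were examined as well. Of the 20 measured neighbours of Ezh2, 10 on each side, 0 had an unadjusted p under 0.05, and their differences ran from -0.34 to 0.24. Cul1, directly before Ezh2 in chromosome order, differed by -0.336 with overlap, as much as Ezh2 itself at -0.336. Around Jak2, 2 neighbours were higher and 1 lower at that level. Insl6, an insulin-like gene directly after Jak2 in chromosome order, read 6.02, 6.27 and 5.19 in WT and 7.40, 7.44 and 7.37 in Jak2VF_Ezh2KO, 1.57 ± 0.27 (SE) higher (adjusted p = 0.159). Its Jak2VF mean was 7.14, so both groups that carry the Jak2 allele stood above WT. Cd274, which encodes the checkpoint ligand PD-L1 and also lies near Jak2, was 0.31 higher, with a Jak2VF mean of 6.99 against 6.65 in WT. The share of genes at an unadjusted p under 0.05 ran from 6.65% on chromosome 1 to 10.8% on chromosome 14.

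**Figure D3:**
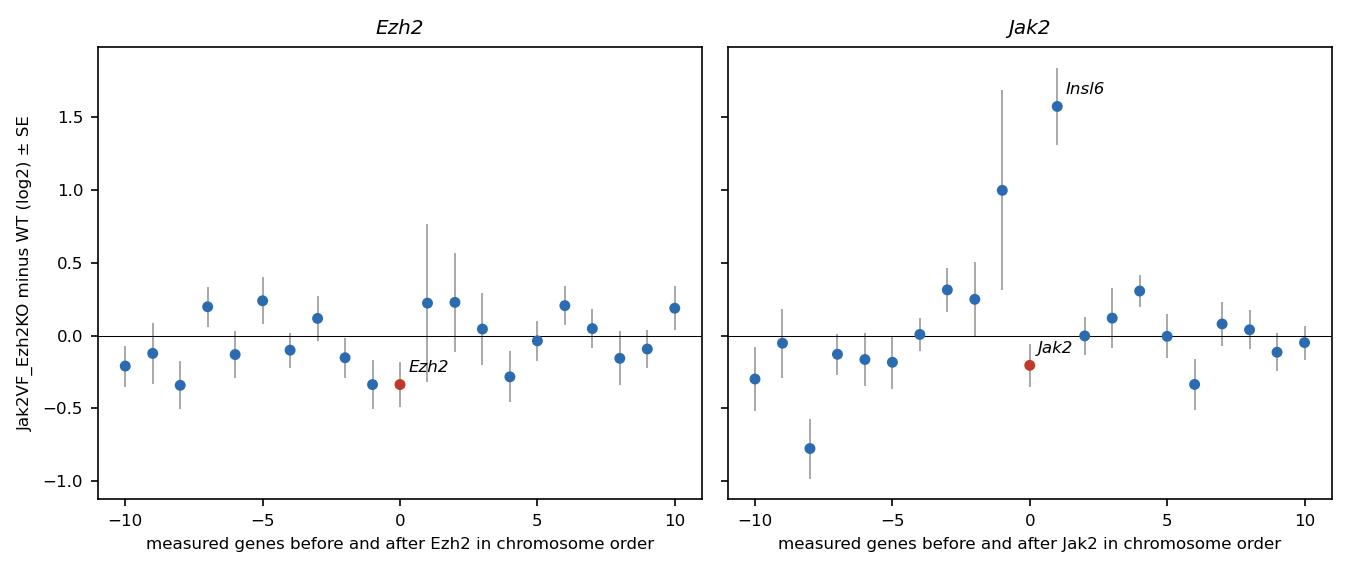
Log2 difference ± SE (Jak2VF_Ezh2KO minus WT, n = 3 each) of Ezh2, Jak2 (red) and their measured neighbours (blue), in chromosome order on the horizontal axis. Insl6, directly after Jak2, stands at 1.57, whereas the neighbours of Ezh2 stay between -0.34 and 0.24.

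The remaining gene lists are described by the number of measured members and their median difference, beside the median of -0.02 over all autosomal genes. Their counts at an unadjusted p under 0.05 stand against 4.67% higher and 3.84% lower over all autosomal genes. The lists were chosen with earlier results of these data known, so these shares are descriptions and not tests. In sorted bulk cells, more cells of a type in a sample and more RNA per cell cannot be told apart. Across the lists, the higher medians were those of erythroid, type I interferon, immediate early, interferon-gamma, mast cell, oxidative phosphorylation and B cell genes, and the lowest was that of megakaryocyte genes.

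**Figure D4:**
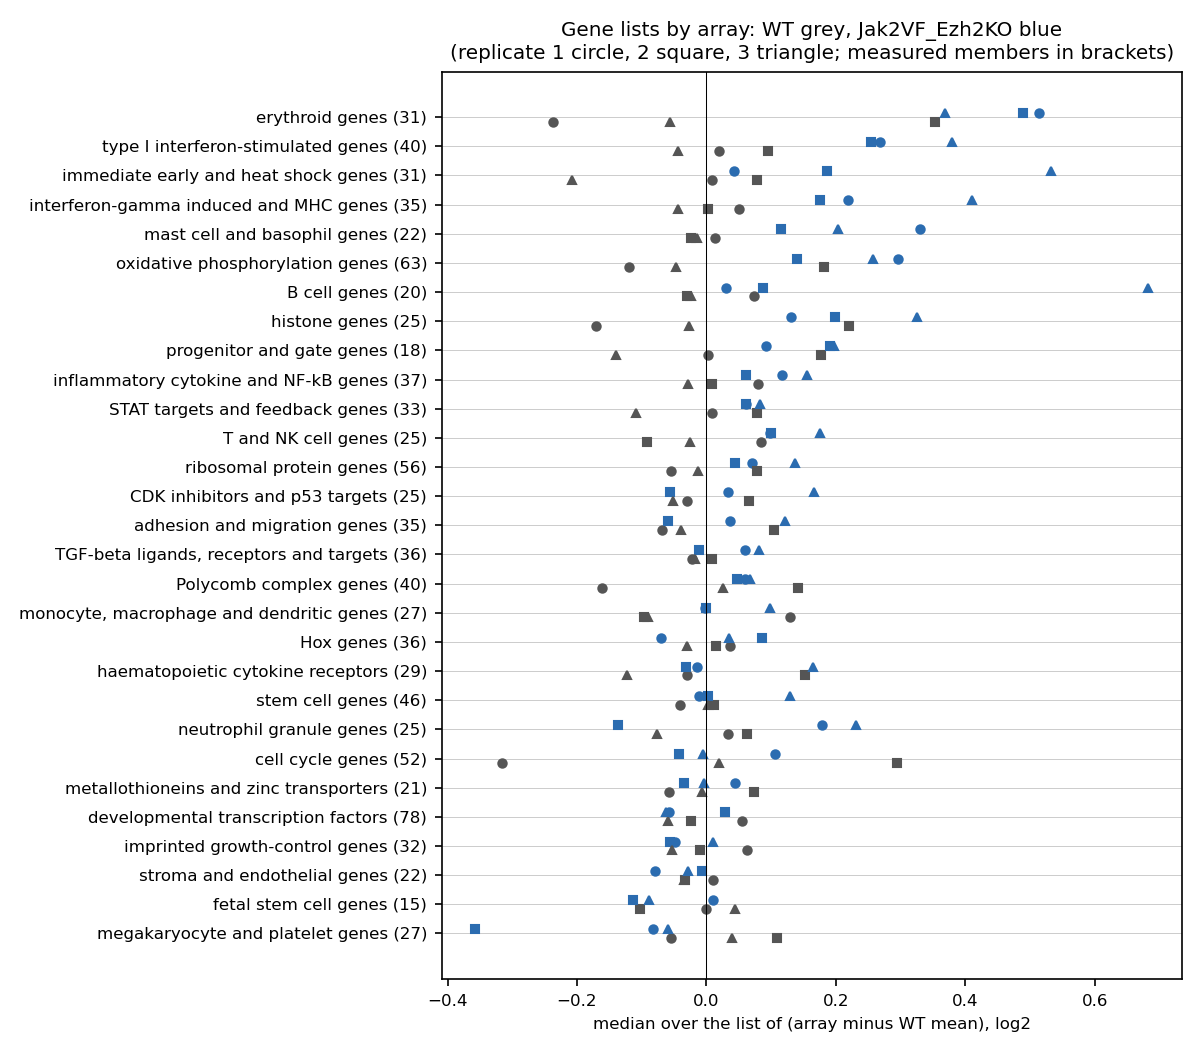
For each gene list (measured members in brackets), the median over its members of array value minus WT mean, in log2 units, is plotted for the 3 WT arrays (grey) and the 3 Jak2VF_Ezh2KO arrays (blue). Type I interferon, interferon-gamma, mast cell and erythroid lists have all 3 blue points to the right of all grey ones, and the B cell list is drawn out by replicate 3 alone.

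The interferon lists hold genes switched on by interferon through STAT and IRF factors, many of them antiviral, and MxCre and pI-pC act through the same pathway. Promoters of 3 leading genes are shown, 250 bases up to the transcription start of the RefSeq annotation on GRCm38.p6, with every match to the interferon response element pattern (GAAA, then NN, then GAAA), searched on both strands, in capitals.
Isg15, chr4:156200819-156201068, minus strand: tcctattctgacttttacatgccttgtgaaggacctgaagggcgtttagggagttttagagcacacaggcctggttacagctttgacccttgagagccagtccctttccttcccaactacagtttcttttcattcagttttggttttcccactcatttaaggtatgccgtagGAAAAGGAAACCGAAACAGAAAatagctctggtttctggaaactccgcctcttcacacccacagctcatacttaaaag
Bst2, chr8:71537473-71537722, minus strand: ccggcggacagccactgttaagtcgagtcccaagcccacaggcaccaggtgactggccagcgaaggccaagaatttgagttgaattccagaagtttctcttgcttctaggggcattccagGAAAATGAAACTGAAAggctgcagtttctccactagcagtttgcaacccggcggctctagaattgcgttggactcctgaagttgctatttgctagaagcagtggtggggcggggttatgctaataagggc
Igtp, chr11:58199306-58199555, plus strand: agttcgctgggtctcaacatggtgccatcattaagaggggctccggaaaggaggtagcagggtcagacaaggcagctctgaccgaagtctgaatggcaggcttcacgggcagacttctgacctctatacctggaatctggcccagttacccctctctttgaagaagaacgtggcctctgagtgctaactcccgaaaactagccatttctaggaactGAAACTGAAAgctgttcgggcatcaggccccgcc
The matches begin 78, 72 and 66 bases before the start in Isg15, 130 and 124 bases in Bst2, and 34 bases in Igtp, and those within Isg15 and within Bst2 overlap one another. Over windows that add 50 bases after the start, the pattern was present in 16 of 29 type I interferon genes (55.2%) and 11 of 26 interferon-gamma genes (42.3%) with a window, against 637 of 16291 autosomal genes (3.91%). The STAT pattern TTCNNNGAA was found in 6 of 29, 7 of 26 and 9.17% of all.

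Type I interferon-stimulated genes were higher in Jak2VF_Ezh2KO in 36 of 40 cases, with a median of 0.35. At an unadjusted p under 0.05, 13 (32.5%) were higher and 0 lower, against 4.67% higher of all autosomal genes, and 15 (37.5%) had no overlap, all higher, against 6.43%. Isg15, a ubiquitin-like antiviral protein, read 5.70, 5.89 and 5.33 in WT and 6.37, 6.64 and 6.98 in Jak2VF_Ezh2KO. Every mutant array lay above every WT array, and the difference was 1.02 ± 0.22 (SE), or 2.03-fold (adjusted p = 0.253). The nucleic acid sensor gene Zbp1 was 0.99 higher, the antiviral membrane genes Ifi27 and Bst2 0.92 and 0.98 higher, and the synthetase gene Oas2 1.06 higher (adjusted p = 0.253 to 0.367). Bst2 was 8.41, 8.65 and 8.07 against 9.23, 9.12 and 9.73. Mx1, whose promoter drives the Cre, was 3.84, 3.71 and 3.94 in WT and 3.93, 5.46 and 4.62 in Jak2VF_Ezh2KO, 0.84 higher with replicate 1 inside the WT range. The lowest difference of the list was that of Ifit2, at -0.19. With single WT or mutant arrays left out, 12 to 16 of the 40 were higher at an unadjusted p under 0.05, and in replicate 3 alone, without both Y-positive arrays, 14. Jak2VF stood at a median of 0.19 over WT for these genes.

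Interferon-gamma induced and MHC genes were higher in 26 of 35 cases with a median of 0.30, and 11 were higher and 1 lower at an unadjusted p under 0.05 (34.3% in all, against 8.51%). Igtp, an immunity-related GTPase, read 7.18, 7.03 and 7.14 in WT and 7.95, 8.10 and 8.54 in Jak2VF_Ezh2KO, 1.08 ± 0.19 (SE) higher (adjusted p = 0.159), and Jak2VF had a mean of 8.26. Iigp1, of the same family, was 1.30 higher, Nlrc5, an activator of MHC class I genes, 0.64, and the immunoproteasome subunit gene Psmb10 0.77 (adjusted p = 0.253 to 0.466). The class II genes H2-Ab1 and H2-Eb1 were 0.94 and 0.58 higher, with means of 9.26 and 6.99 in Jak2VF. The guanylate-binding protein gene Gbp6 was the only one lower at that level, with a difference of -0.44. The median in Jak2VF, against the same WT arrays, was 0.32. The 11 genes became 6 without Jak2VF_Ezh2KO replicate 3 and 7 without WT replicate 3, and were 8 without both Y-positive arrays.

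Erythroid genes were higher in 29 of 31 cases, with a median of 0.52, and 12 (38.7%) were higher and 0 lower at an unadjusted p under 0.05, against 4.67% higher of all autosomal genes. The list median of the single arrays, relative to the WT mean, was -0.24, 0.35 and -0.06 in WT and 0.51, 0.49 and 0.37 in Jak2VF_Ezh2KO, so WT replicate 2 lay almost level with the lowest mutant array. Alad and Urod, enzymes of haem synthesis, were 1.06 and 0.81 higher (adjusted p = 0.4 and 0.447). Alad read 7.76, 8.62 and 7.72 in WT and 9.07, 9.15 and 9.05 in Jak2VF_Ezh2KO. Cpox and Fech, later enzymes of this pathway, were 0.79 and 0.43 higher, and the erythroid transcription factor gene Klf1 0.81 higher. Hemgn differed by -0.08. The Jak2VF median of the list was -0.02, but its arrays ranged widely, at -0.30, 0.47 and -0.10, so Jak2VF replicate 2 lay within the range of Jak2VF_Ezh2KO. The 12 genes were 1 in replicate 3 alone, at a median of 0.37, and 6 without WT replicate 1 or without Jak2VF_Ezh2KO replicate 1.

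The largest difference in that list was of Mt2, a metallothionein that binds zinc and is not restricted to red cells. It read 8.62, 9.64 and 9.61 in WT and 11.56, 11.65 and 11.27 in Jak2VF_Ezh2KO, 2.20 ± 0.42 (SE) higher, or 4.61-fold (adjusted p = 0.193), with Jak2VF at 9.27. Mt1 was 0.95 higher (adjusted p = 0.424), from 9.16, 9.54 and 9.44 to 10.51, 10.53 and 9.96. Both genes were counted in the erythroid list, among its 12 members that were higher at an unadjusted p under 0.05. The 21 metallothioneins and zinc transporters had a median of -0.02 and, apart from Mt1 and Mt2, 1 member with an unadjusted p under 0.05. The metal response pattern, TGCACNC or TGCGCNC, was present in 11 of 18 promoters of this list (61.1%) and in 32.8% of all.

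**Figure D5:**
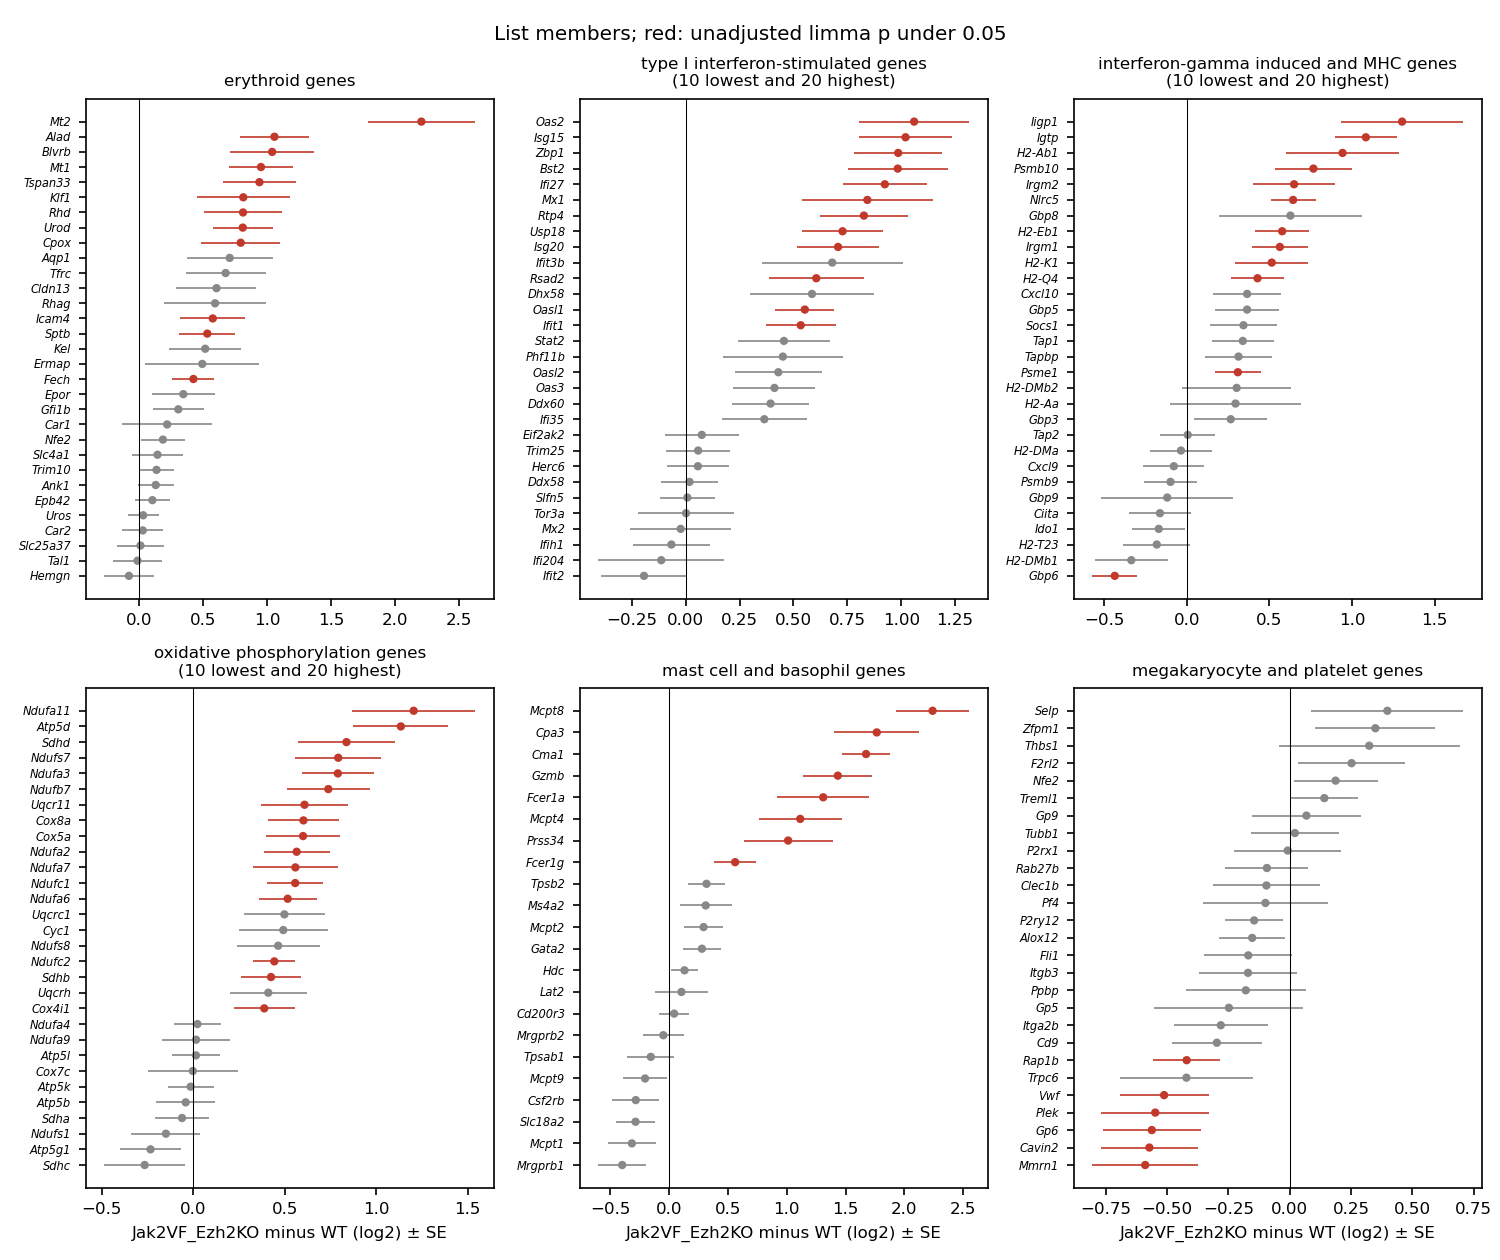
Log2 difference ± SE (Jak2VF_Ezh2KO minus WT, n = 3 each) of members of 6 gene lists, in red where the unadjusted limma p was under 0.05. The type I interferon, interferon-gamma and oxidative phosphorylation panels show only their lowest and highest members, with more of the highest. Mt2 leads the erythroid list at 2.20, Mcpt8 the mast cell and basophil list at 2.24, and in the megakaryocyte and platelet list all 6 red members lie below 0.

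Megakaryocyte and platelet genes were lower in 19 of 27 cases, with a median of -0.15, and 0 were higher and 6 (22.2%) lower at an unadjusted p under 0.05, against 3.84% lower of all autosomal genes. Vwf, the von Willebrand factor that also marks platelet-biased stem cells, read 6.93, 6.57 and 6.97 in WT and 6.29, 6.28 and 6.37 in Jak2VF_Ezh2KO, a difference of -0.51 (adjusted p = 0.515) without overlap. The collagen receptor gene Gp6 differed by -0.56, the caveolar protein gene Cavin2 by -0.57, Mmrn1 of platelet granules by -0.59 and Plek, a kinase substrate of platelets, by -0.55. Of the 8 higher members, Selp differed by 0.40, Zfpm1 by 0.35 and F2rl2 by 0.25. Pf4 and Ppbp, also in the list, differed by only -0.10 and -0.18, with overlap. Itga2b, the platelet integrin subunit, overlapped at 6.86, 7.41 and 7.10 against 7.08, 6.59 and 6.85, while its Jak2VF mean was 8.29. Over the list, Jak2VF stood at 0.20 above WT. The 6 genes were 1 without both Y-positive arrays, 2 without WT replicate 3, and 3 without WT replicate 1 or Jak2VF_Ezh2KO replicate 2.

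Mast cell and basophil genes were uneven. Of 22 measured, 15 were higher (median 0.29), 8 (36.4%, against 4.67%) were higher and 0 lower at an unadjusted p under 0.05, and Cma1 alone passed over all genes. Cpa3, the mast cell carboxypeptidase, read 7.31, 7.71 and 6.29 in WT and 9.42, 8.71 and 8.47 in Jak2VF_Ezh2KO, 1.77 higher or 3.40-fold (adjusted p = 0.248). Its Jak2VF mean was 8.54. The granzyme gene Gzmb, one of the 8 but not restricted to mast cells and basophils, was 1.43 higher (adjusted p = 0.248). The IgE receptor gene Fcer1a was 1.31 higher (adjusted p = 0.457), with 6.29 in Jak2VF. In contrast, Ms4a2, the beta chain of the same receptor, differed by 0.31, the histamine enzyme gene Hdc by 0.13 and the mast cell receptor gene Mrgprb1 by -0.40. The mean level of the list ran from 5.35 to 5.45 in WT, from 5.63 to 5.82 in Jak2VF and from 5.72 to 5.96 in Jak2VF_Ezh2KO. Over the list, the Jak2VF median against the same WT arrays was also 0.29, so Jak2VF shared the higher median. The 8 genes were 9 without both Y-positive arrays.

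Several single genes of lymphoid progenitors and cytotoxic cells were higher. Dntt, the terminal transferase of early lymphoid cells, read 6.79, 7.51 and 5.80 in WT and 8.49, 8.76 and 9.09 in Jak2VF_Ezh2KO, 2.08 ± 0.38 (SE) higher or 4.22-fold (adjusted p = 0.182). Il7r, the interleukin 7 receptor, went from 5.19, 5.57 and 5.04 to 6.05, 7.25 and 7.33, 1.61 higher (adjusted p = 0.319). Their Jak2VF means were 7.20 and 4.92. Flt3, which encodes the CD135 used to gate cells out, was 0.50 higher and Cd34 differed by -0.34, and the 18 progenitor and gate genes had a median of 0.14 with 4 higher and 1 lower at an unadjusted p under 0.05. Among 25 T and NK cell genes (median 0.10; 6 higher, 1 lower), the NK receptor gene Klrd1 was 1.40 higher and the chemokine gene Ccl5 1.76 higher (adjusted p = 0.188 and 0.216). Ccl5 read 8.66, 7.73 and 7.32 in WT and 9.38, 9.71 and 9.91 in Jak2VF_Ezh2KO. The T cell receptor component Cd3e stood at 4.83 to 5.16 on all 6 arrays and differed by 0.10, and Cd4 differed by -0.48. The mean level of the T and NK list ran from 5.70 to 5.89 in WT and from 6.08 to 6.23 in Jak2VF_Ezh2KO.

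The median of the B cell genes was set apart by 1 array, but not every member followed it. The list median relative to WT was 0.03, 0.09 and 0.68 in Jak2VF_Ezh2KO replicates 1 to 3. Of 20 measured, 15 were higher and 5 lower. Vpreb3, a B-lineage gene, read 5.27 and 5.38 in replicates 1 and 2 but 7.51 in replicate 3, against 5.08 to 5.24 in WT. Cd79a read 4.96, 4.96 and 6.74 against 4.78 to 4.96. The brighter Cd79b went the other way, at 8.14, 7.95 and 7.35 in WT and 6.85, 7.06 and 7.87 in Jak2VF_Ezh2KO. It differed by -0.555 (adjusted p = 0.61), with replicate 3 inside the WT range. Replicate 3 is also the mutant array without Y-linked signal. The mean level of the 20 B cell genes was 6.35 there and 5.32 to 5.61 on the other 5 arrays. How far B-lineage RNA in this array enters the other lists was not tested.

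Myeloid markers were mixed. Of 25 neutrophil granule genes 13 were higher and 12 lower (median 0.01), and 5 were higher and 0 lower at an unadjusted p under 0.05, among them S100a9, 1.06 higher, at 6.62, 6.26 and 6.15 against 7.33, 6.38 and 8.50. Of 27 monocyte, macrophage and dendritic genes, 5 were higher and 0 lower at that level, led by the transcription factor gene Irf8, 0.98 higher, and Lst1, 1.02 higher (adjusted p = 0.253 and 0.235), each without overlap. Irf8 was only 0.35 higher by its other probe set, and its Jak2VF mean was 6.76 against 5.95 in WT. Stroma and endothelial genes had a median of -0.05, and 1 of 22 was at that level. The 5 neutrophil genes were 1 without Jak2VF_Ezh2KO replicate 3 or WT replicate 3, 2 without WT replicate 2, and 8 without both Y-positive arrays. The 5 monocyte genes were 3 without Jak2VF_Ezh2KO replicate 2 or without both Y-positive arrays.

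Stem cell genes had a median of 0.01 over 46 members, 24 higher and 22 lower. At an unadjusted p under 0.05, 3 were higher and 5 lower. Mecom, a transcription factor required by these cells, read 7.90, 7.55 and 7.83 in WT and 7.37, 7.17 and 7.54 in Jak2VF_Ezh2KO, a difference of -0.40 (adjusted p = 0.533), or -0.15 by its other probe set, with a Jak2VF mean of 7.05. Meis1, Vwf and Angpt1 differed by -0.43, -0.51 and -0.36 with no overlap. The lymphotoxin gene Ltb and the transcription factor gene Runx1 were 1.003 and 0.49 higher, and Procr, the endothelial protein C receptor of stem cells, differed by 0.26. The 5 lower genes were 1 without both Y-positive arrays, without Jak2VF_Ezh2KO replicate 2 or without WT replicate 1, 2 without Jak2VF_Ezh2KO replicate 1 or WT replicate 3, 3 without WT replicate 2, and 8 without Jak2VF_Ezh2KO replicate 3.

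Signalling targets were led by a few genes. Of 33 STAT targets, 5 were higher and 0 lower at an unadjusted p under 0.05 (15.2%, median 0.10). Cish, a feedback inhibitor induced by STAT5, was 0.93 higher by its brighter probe set and 0.59 by the other, and the kinase gene Pim1 was 0.59 higher by its brighter probe set and close to 0 in difference by the other. The 5 STAT targets were 1 without Jak2VF_Ezh2KO replicate 2 or WT replicate 3, 2 without Jak2VF_Ezh2KO replicate 3, 3 without replicate 1 of either group, and 5 without both Y-positive arrays. Id2, a helix-loop-helix inhibitor in the TGF-beta list, read 6.71, 6.23 and 6.75 in WT and 7.86, 7.80 and 7.57 in Jak2VF_Ezh2KO, 1.18 higher (adjusted p = 0.27), while Jak2VF stood at 6.11. In the inflammatory and NF-kB list, 7 of 37 were higher and 0 lower at an unadjusted p under 0.05. The cytokine subunit gene Ebi3 was 1.18 higher, or 0.66 by its other probe set, and the chemokine gene Ccl3 1.21 higher (adjusted p = 0.182 and 0.466). These 7 were 4 without Jak2VF_Ezh2KO replicate 2 or WT replicate 3, and 7 without both Y-positive arrays. Immediate early and heat shock genes, known to respond to cell handling, had a median of 0.33, and by array 0.04, 0.19 and 0.53 in Jak2VF_Ezh2KO and -0.21 to 0.08 in WT. Jun read 6.03, 7.53 and 6.24 in WT and 7.23, 7.97 and 9.06 in Jak2VF_Ezh2KO.

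Oxidative phosphorylation genes were higher in 56 of 63 cases with a median of 0.22, with 18 (28.6%, against 4.67%) higher and 0 lower at an unadjusted p under 0.05. Atp5d, a subunit of ATP synthase, read 9.63, 10.23 and 9.52 in WT and 10.78, 10.90 and 11.11 in Jak2VF_Ezh2KO, 1.13 higher, or 0.82 by its other probe set (adjusted p = 0.304), and the complex I subunits Ndufa11 and Ndufa3 were 1.20 and 0.79 higher. The list median by array was -0.12, 0.18 and -0.05 in WT and 0.30, 0.14 and 0.26 in Jak2VF_Ezh2KO, so WT replicate 2 overlapped with the mutant arrays. The 18 genes were 7 without both Y-positive arrays. Of 56 ribosomal protein genes, many with near-identical pseudogene copies, 38 were higher and 18 lower with a median of 0.09. The list median of WT replicate 2, at 0.078, lay above those of Jak2VF_Ezh2KO replicates 1 and 2, at 0.071 and 0.045. At that level 7 were higher and 1 lower, the 7 being 3 without Jak2VF_Ezh2KO replicates 1 or 3 or WT replicates 1 or 3. Differences also went with brightness, as 804 of 10712 brighter genes were higher and 300 lower at an unadjusted p under 0.05, whereas 186 of 10492 dimmer genes were higher and 515 lower. The 1441 sensory receptor genes, which blood stem cells are not known to use, had a median of -0.11. Neither the brighter genes nor the receptor genes separated the groups. Among the compared arrays, WT replicate 2 had the highest mean of the brighter genes, at 7.214 against 7.096 to 7.207 in Jak2VF_Ezh2KO. Its receptor mean, at 3.86, was lower than that of any Jak2VF_Ezh2KO array (3.90 to 4.05).

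Cell cycle genes were spread evenly, with 26 higher and 26 lower among 52, and the WT arrays themselves ranged in list median from -0.32 to 0.29. Rrm2, the ribonucleotide reductase subunit, was 0.75 higher and Stmn1, a microtubule regulator, differed by -0.38 (adjusted p = 0.441 and 0.45). Of 25 histone genes, 20 were higher with a median of 0.20, so H2ac15 at -2.04 stood opposite to most of its family. H1f5, its direct neighbour among the measured genes, was 1.30 higher and H4c9 0.82 higher (adjusted p = 0.473 and 0.386). Of 25 CDK inhibitor and p53 target genes, 1 was higher and 1 lower at an unadjusted p under 0.05, namely the p53 inhibitor gene Mdm2, 0.33 higher, and Ei24, which differed by -0.66 (adjusted p = 0.563 and 0.502).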

How the data were processed

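The authors deposited log2 values of 41345 probe sets for 9 Affymetrix arrays. Per the submitters' processing notes, Partek 6.6 was used. The sources used here do not give the background correction, the normalization or the array's genome build, and no further normalization was applied. Per the labels' protocols, 10 ng of RNA was amplified before labelling. Probe sets with several symbols (1814) or none here (16010) were left out. Of 22180 genes, 1082 had several probe sets and 44 had no known chromosome. Symbols, chromosomes, gene order and promoters came from RefSeq tables of GRCm38.p6.

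The fit was limma 3.58.1 in R 4.3.3 (lmFit, eBayes) over all 9 arrays, with 6 residual degrees of freedom, a prior of 3.83 and a prior SD of 0.206. P-values are two-sided, with Benjamini-Hochberg adjustment over all 22180 genes and a threshold of 0.05. The fit was also run on data simulated with independent noise and no sex or array effect, which does not check the calls made here. The labels call the replicates biological but do not say whether each is 1 mouse or a pool, and 3 arrays per group limit precision.

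The comparison and the gene lists were chosen with earlier results of these data known. Named genes are Jak2, Ezh2 and Ezh1, the leading 15 genes each way, and up to 4 members of each list by smallest p, leaving out predicted, RIKEN, small RNA and sensory receptor genes. Other list members were picked after their values were seen. Alternatives were quantile normalization, median centring, variance trend, array weights, ordinary least squares, only 6 arrays, dim genes left out, probe set means, adjustment over autosomal genes, a replicate block, a Y-signal covariate and each array left out. Leaving out both Y-positive arrays and a receptor-signal covariate were chosen after seeing the data.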

Additional observations from a re-analysis of the deposited data

Results flagged for a closer look

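Y-linked genes lie outside the autosomal comparison, and the 3 that were averaged stood high in 2 arrays only. Their mean was 6.66 in Jak2VF_Ezh2KO replicate 1 and 6.81 in replicate 2, above the 3.64 to 3.73 of the WT arrays and the 3.73 of replicate 3. In Jak2VF it was 3.71 to 4.08.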

How the results depend on the processing

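The number of autosomal genes that passed (5; 4 higher, 1 lower) was 8 with quantile normalization (6 and 2), 3 with median centring (3 and 0), 10 with variance trend and robust fit (8 and 2), 13 with array weights (11 and 2) and 6 with dim genes left out (4 and 2), of which 5, 3, 5, 5 and 1 were among the main 5 (4 of these are dim and were not in the last fit). At an adjusted threshold of 0.1 it was 13 (10 and 3). It was 2 (2 and 0) with the Y-signal covariate, neither among the 5, and 0 (0 and 0) in limma with only the 6 arrays (1004 higher and 817 lower at an unadjusted p under 0.05), with the receptor-signal covariate (818 and 825), without both Y-positive arrays (712 and 443) and in ordinary least squares (761 and 688). With the replicate block it was also 0 (1087 and 835). Same-numbered WT and Jak2VF_Ezh2KO arrays correlated at -0.05, -0.14 and -0.04 in their deviations from the group means. Differently numbered ones correlated at -0.11 to 0.14. With 3 arrays per group these values cannot decide whether the numbers pair the samples. Genes lower at an unadjusted p under 0.05 were 542 with the Y-signal covariate and 316 with dim genes left out, where 1606 genes had no overlap. With single arrays left out, the genes passed were 0 to 6 (0 to 6 higher, 0 to 1 lower), those at an unadjusted p under 0.05 were 623 to 1509 higher and 550 to 1199 lower, and those without overlap 4184 to 6611, which fewer arrays make more frequent. Signs reversed for Cd79b (0.046 with the Y-signal covariate, 0.055 without both Y-positive arrays) and Rhoa (-0.089 with probe set means). Other scalings moved the median of all genes by 0.02 (quantile) and 0.03 (centring), and turned the sign of the list medians of stem cell, stroma, Polycomb, developmental and cell cycle genes (quantile) and of metallothionein and zinc genes (both). The cause of these changes was not tested.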
